A study of Caenorhabditis elegans with 4 samples.

Results

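A count table for the nematode Caenorhabditis elegans held 15913 piRNAs, of which 1542 had enough wild type reads to be judged. Of these, 73 had a pooled level of 0.3 or more of wild type in immunoprecipitates of PRG-1 without its PAZ domain. They were chosen from the measured sense reads. A piRNA needed at least 20 reads over both wild type libraries, at least 1 read in each mutant library, and a pooled level per genome-mapped read in the mutant of 0.3 or more of the pooled wild type level. The genotypes were prg-1(∆PAZ-domain), called the mutant here, and Wild Type, each with 2 libraries of small RNA. In both genotypes PRG-1 carried a V5 tag, adult hermaphrodites were grown at 25 °C, and PRG-1 was precipitated from lysates of whole worms. Nothing in the labels tells whether a replicate was its own culture, so the spread between replicates may be technical.

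PRG-1 is the Piwi-clade Argonaute of the C. elegans germline. It holds piRNAs, called 21U-RNAs in this species because of their length and their first base, and uses them to recognise germline transcripts and foreign sequence, after which RNA-dependent RNA polymerases make secondary small RNAs on the target. The PAZ domain is the part of an Argonaute that binds the 3' end of the guide RNA. In C. elegans each piRNA is transcribed from its own small locus, most of them on chromosome IV, and its 3' end is trimmed and methylated. The table named piRNAs by piRNAdb identifier, with neither sequence nor position, so no sequence, locus or target is given here for a single piRNA.

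The libraries differed in ways that touch every value below. prg-1(∆PAZ-domain) replicates 1 and 2 held 7819170 and 14430880 genome-mapped reads and 20327 and 17197 sense piRNA reads. Wild type replicates 1 and 2 held 6461936 and 8416474 genome-mapped reads and 142604 and 140121 sense piRNA reads. A bin of 1 Mb with ribosomal RNA genes, on the plus strand of chromosome I, took 29.6% of the genome-mapped reads in mutant replicate 1, against 61.2% in mutant replicate 2 and 63.2% and 67.1% in wild type. Mutant replicate 1 thus stood apart, and results are given per mutant library. Input RNA, a precipitate without the tag and the amount of PRG-1 protein were not analysed here. Fewer germline cells, less piRNA per cell and less recovered PRG-1 therefore cannot be told apart.

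The wild type minimum was met by 1542 piRNAs. Of these, 187 had no read in either mutant library, 444 had reads in 1 of them, and 911 had reads in both. The ratio criterion then kept 73 and left out 838. At 20 wild type reads, the fewest allowed, 9 mutant reads were needed to reach 0.3. The members just inside the threshold were cel-piR-5485, cel-piR-13640 and cel-piR-4171, at 0.301, 0.302 and 0.306 of wild type. Just outside it were cel-piR-6681 and cel-piR-10817, both at 0.299, and cel-piR-10519, at 0.297. The ratios ran on across the threshold without a gap. The number of members moved with the libraries and the denominator. The same criteria were met by 23 piRNAs without mutant replicate 1, 269 without mutant replicate 2, 41 without wild type replicate 1 and 23 without wild type replicate 2. Divided by reads mapped elsewhere than the ribosomal RNA bin, 37 piRNAs met them, all among the 73. Divided by sense piRNA reads, whose total was far lower in the mutant, 773 met them.

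The 73 piRNAs had a median mutant level of 0.437 of wild type (quartiles 0.341 and 0.580, range 0.301 to 1.79). The median over all 1542 piRNAs with enough wild type reads was 0.0514. These values follow from how the members were chosen. By size of ratio, 32 members lay between 0.3 and 0.4, 13 between 0.4 and 0.5, 24 between 0.5 and 1, and 4 at 1 or more. The 4 at or above the wild type level were cel-piR-5164, cel-piR-1707, cel-piR-11803 and cel-piR-15164.

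**Figure D1:**
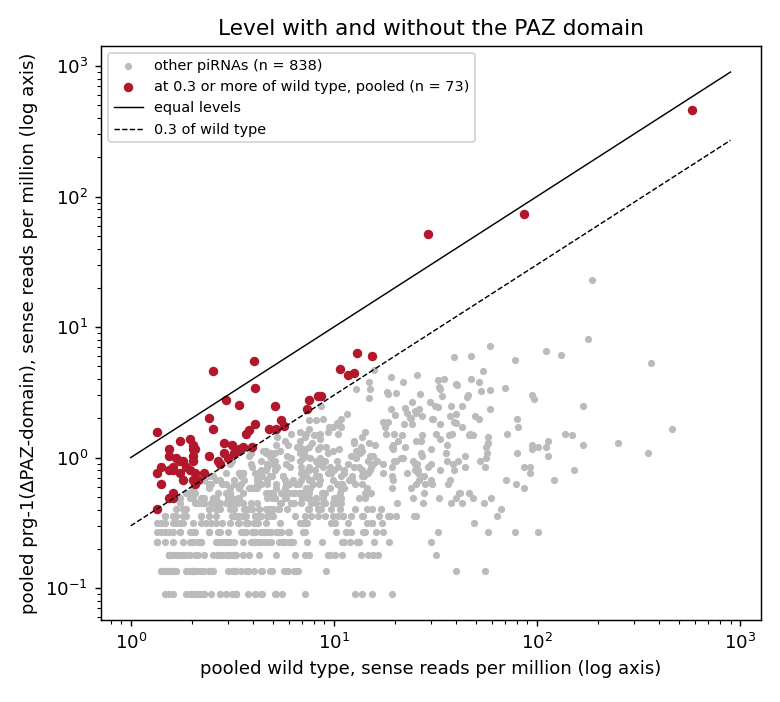
Each point is 1 of the 911 piRNAs with at least 20 wild type reads and a read in each mutant library. The vertical axis gives the pooled level in prg-1(∆PAZ-domain) and the horizontal axis that in wild type, both in sense reads per 1000000 genome-mapped reads on log axes. The 73 chosen piRNAs (red) lie on or above the dashed line at 0.3, most of them at low levels, and 3 stand apart at high levels.

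Most of the 73 were rare in wild type. Their median was 38 wild type reads, against 60 over all 1542 piRNAs, and 46 of the 73 had fewer than 50. Members made up 6.94% of the 663 piRNAs with 20 to 49 wild type reads and 4.30% of the 349 with 50 to 99. They made up 3.13% of the 256 piRNAs with 100 to 199 reads, 1.18% of the 169 with 200 to 499 and 1.90% of the 105 with 500 or more. The median ratio over all piRNAs of these classes was 0.0581, 0.0590, 0.0569, 0.0377 and 0.0206. It was thus similar in the classes up to 199 reads and lower from 200 reads on. The exact 95% counting interval of the ratio lay wholly above 0.3 for 24 members and reached 0.3 or lower for 49. Such intervals use the summed reads of a genotype and hold counting error alone, so they leave out the spread between replicates. Between replicates, the chi-square per degree of freedom was 29.7 in the mutant (289 piRNAs) and 9.24 in wild type (1542), well above counting error. The intervals are therefore too narrow for that spread. PCR copies of a molecule are counted as separate reads, so even the counting error may be understated.

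The number of members past the threshold differed between the mutant libraries. Set against pooled wild type, 72 of the 73 were at 0.3 or more in mutant replicate 1, whereas 20 were in mutant replicate 2, and 19 were in both. The member that passed in replicate 2 alone was cel-piR-1592. The median member stood at 85.8% of wild type in mutant replicate 1 and at 16.5% in mutant replicate 2. The 53 members below 0.3 in replicate 2 had ratios of 0.0322 to 0.289 there, on 1 to 57 reads, and of 0.414 to 2.07 in replicate 1. For these 53 the label of a piRNA kept without PAZ rests on 1 library. They are therefore called less-reduced piRNAs here, after the pooled ratio that chose them.

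The 838 other piRNAs read in both mutant libraries differed between those libraries in the same direction. Of these, 18.3% reached 0.3 of wild type in mutant replicate 1 and 0.239% in mutant replicate 2. A pooled ratio under 0.3 defines these others, so the rule itself limits both shares. It limits the share in replicate 2 more, since that library held more genome-mapped reads. The level in mutant replicate 1 exceeded that in replicate 2 for 70 of the 73 members and for 766 of the 838 others. The median ratio of replicate 1 to replicate 2 was 5.13 over the members (quartiles 3.08 and 7.91) and 3.74 over the others (1.85 and 7.38). The choice of members may also shape this contrast. Between wild type replicates the median ratio of 1 to 2 was 1.66 over the members and 1.42 over the others. Mutant replicate 1 also had the lower share of ribosomal RNA bin reads, and whether this share bears on the difference was not tested. Counted per 1000000 reads mapped elsewhere in the genome, the members other than cel-piR-8767 summed to 624 in mutant replicate 1 and 347 in mutant replicate 2, which is 1.80-fold apart. On that scale the rest of the table was 2.42-fold apart between mutant replicates. Per genome-mapped read these sums were farther apart, at 3.26-fold and 4.39-fold. The reverse held for cel-piR-8767, which was 3.31-fold apart per genome-mapped read and 6.01-fold outside the ribosomal RNA bin, with replicate 2 higher. All 73 members together were 1.19-fold apart per genome-mapped read and 2.16-fold outside that bin.

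**Figure D2:**
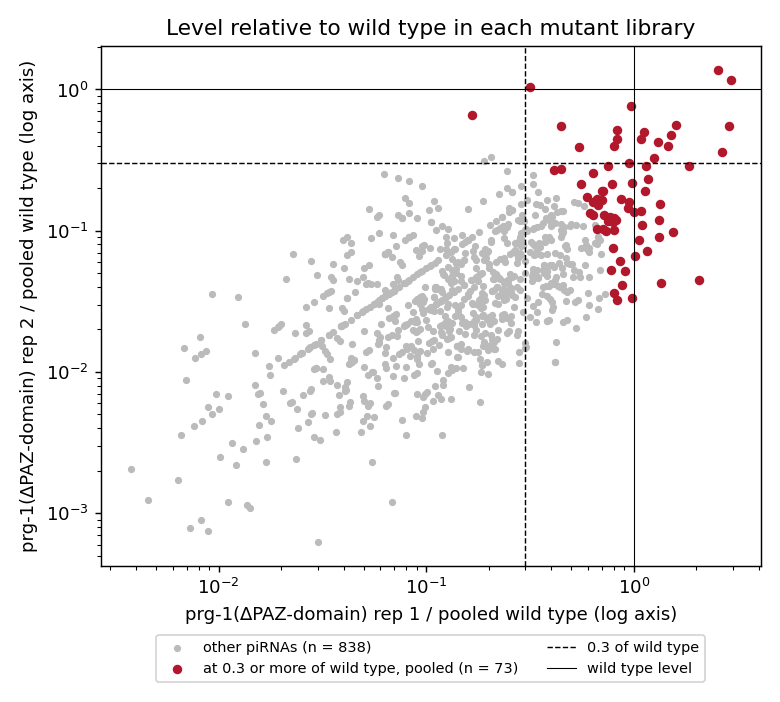
For the same 911 piRNAs, the level in mutant replicate 2 (vertical) is plotted against the level in mutant replicate 1 (horizontal), each divided by the pooled wild type level, on log axes. Dashed lines mark 0.3 and solid lines the wild type level. Nearly all of the 73 chosen piRNAs (red) lie right of the vertical dashed line, and 20 lie above the horizontal one.

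The 19 members at 0.3 or more in both mutant libraries included the 3 most abundant, cel-piR-8767, cel-piR-14009 and cel-piR-1707. The other 16 had 20 to 61 wild type reads. They stood at 0.444 to 2.85 of wild type in mutant replicate 1 and at 0.301 to 1.38 in mutant replicate 2. From the most to the least abundant in wild type, they were cel-piR-7810, cel-piR-11803, cel-piR-7035, cel-piR-862, cel-piR-10478, cel-piR-5164, cel-piR-10875, cel-piR-156, cel-piR-1575, cel-piR-11471, cel-piR-6482, cel-piR-7323, cel-piR-8624, cel-piR-686, cel-piR-7871 and cel-piR-15164. This list of 19 was drawn after the values were seen.

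To read the ratio in libraries that did not choose the piRNAs, the same ratio was applied to replicate 1 of each genotype, with at least 10 wild type reads, and then read in replicate 2. It chose 218 piRNAs, of which 34 (15.6%) were at 0.3 or more in replicate 2, against 37 (2.66%) of the 1393 not chosen. Their median level in replicate 2 was 8.81% of wild type, against 1.42% for those not chosen. In the other direction 28 piRNAs were chosen in replicate 2. Of these, 18 (64.3%) were at 0.3 or more in replicate 1, against 225 (15.2%) of the 1482 not chosen. Most piRNAs chosen in replicate 1 lay under 0.3 in replicate 2, which is a count and not a test. Of the 218 and 28 chosen, 63 and 19 were members, which the rule had chosen from every library. With the wild type libraries exchanged, 5.15% of 330 piRNAs chosen in mutant replicate 1 were at 0.3 or more in mutant replicate 2, against 1.36% of 1180 not chosen. In the other direction these shares were 66.7% of 15 and 26.3% of 1596. Chosen and other piRNAs were not matched on wild type reads, and piRNAs with 200 or more wild type reads lay lower in median ratio. With 1 library per genotype on each side no test was possible, and nothing is read from these differences.

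The most abundant piRNA of the whole table, cel-piR-8767, was a member. It had 183 and 607 reads per 1000000 genome-mapped reads (RPM) in mutant replicates 1 and 2, against 792 and 415 RPM in wild type replicates 1 and 2. The genotypes overlapped, and the mutant library with the higher level was replicate 2, the reverse of nearly every other member. Its pooled ratio was 0.792 (counting interval 0.769 to 0.815), made of 0.317 in mutant replicate 1 and 1.05 in mutant replicate 2.

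The next member by abundance, cel-piR-14009, had 131 and 41.6 RPM in mutant replicates 1 and 2, against 54.9 and 111 RPM in wild type replicates 1 and 2. Mutant replicate 1 was the highest of the libraries and mutant replicate 2 the lowest, so the genotypes overlapped. The pooled ratio was 0.842, with 1.51 in mutant replicate 1 and 0.478 in mutant replicate 2. For cel-piR-1707 the mutant libraries held 84.9 and 33.7 RPM, against 29.2 and 29.0 RPM in wild type. Both mutant values exceeded both wild type values, by little in replicate 2. Its pooled ratio was 1.78 (counting interval 1.59 to 1.99), with 2.92 in mutant replicate 1 and 1.16 in mutant replicate 2.

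**Figure D3:**
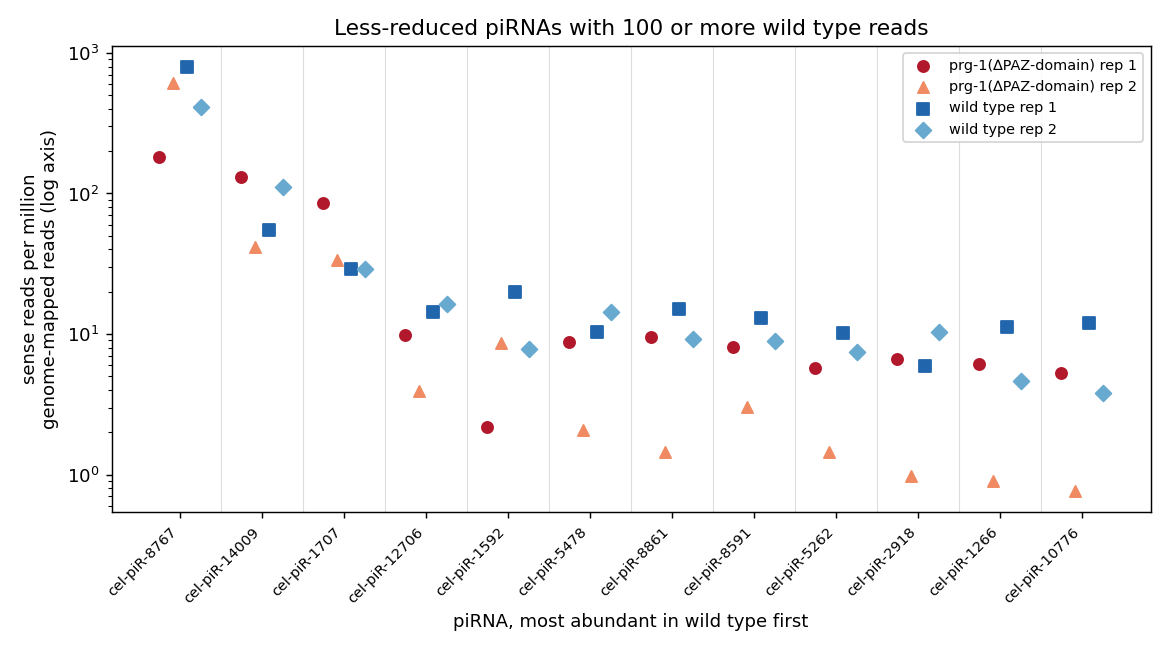
Sense reads per 1000000 genome-mapped reads on a log axis, by library, for the 12 less-reduced piRNAs with at least 100 wild type reads. Red and orange symbols are mutant libraries and blue symbols wild type libraries. Mutant replicate 2 (orange triangles) is the lowest of the 4 libraries for 9 of the 12, mutant replicate 1 is the lowest for cel-piR-8767 and cel-piR-1592, and a wild type library is the lowest for cel-piR-1707.

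The other 9 members with at least 100 wild type reads lay between 0.316 and 0.489 of wild type. Of these, cel-piR-12706 was the most abundant, with 9.85 and 3.95 RPM in mutant replicates 1 and 2, against 14.2 and 16.4 RPM in wild type. Both mutant libraries were below both wild type libraries, at a pooled ratio of 0.390. The piRNA cel-piR-8591 had 8.06 and 3.05 RPM in the mutant, against 13.0 and 8.91 RPM in wild type. It too was lower in both mutant libraries, by little between mutant replicate 1 and wild type replicate 2.

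The groups likewise did not overlap for cel-piR-5478, with 8.82 and 2.08 RPM in the mutant, against 10.4 and 14.3 RPM in wild type. For cel-piR-5262 the values were 5.76 and 1.46 RPM in the mutant, against 10.2 and 7.49 RPM in wild type. In all 4 of these piRNAs, mutant replicate 1 was at 0.637 to 0.754 of wild type and replicate 2 at 0.165 to 0.285.

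The genotypes overlapped for the remaining 5, each time because mutant replicate 1 or 2 reached the lower wild type library. The piRNA cel-piR-1592 had 2.17 and 8.66 RPM in mutant replicates 1 and 2, against 19.8 and 7.84 RPM in wild type replicates 1 and 2. Like cel-piR-8767, it was higher in mutant replicate 2 than in mutant replicate 1, and higher in wild type replicate 1 than in wild type replicate 2. The piRNA cel-piR-8861 had 74 and 21 reads in the mutant, against 97 and 78 reads in wild type. Between 0.103 and 0.124 of wild type was left in mutant replicate 2 for cel-piR-8861, cel-piR-2918, cel-piR-1266 and cel-piR-10776, against 0.709 to 0.815 in mutant replicate 1.

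Among the rarer members, cel-piR-5164 had the highest pooled ratio, 1.79 (counting interval 1.23 to 2.68). It had 6.52 and 3.53 RPM in mutant replicates 1 and 2, on 51 reads each, against 3.10 and 2.14 RPM in wild type, on 20 and 18 reads. Together with cel-piR-1707 it was the only member whose mutant libraries both exceeded both wild type libraries. The counting interval of the ratio lay wholly above 1 for these 2 members, held 1 for 18 and lay wholly below 1 for 53. These intervals leave out the spread between replicates and use the reads that chose the members, so nothing is read from the counts.

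The piRNA cel-piR-11803 had 11.5 and 2.22 RPM in mutant replicates 1 and 2, against 7.89 and 1.07 RPM in wild type replicates 1 and 2, a pooled ratio of 1.36 (counting interval 0.990 to 1.88). Its wild type libraries were farther apart than its pooled genotypes. For cel-piR-15164 the levels were 3.58 and 0.485 RPM in the mutant, against 1.86 and 0.951 RPM in wild type, a ratio of 1.17 that came from mutant replicate 1. Pooled ratios of 0.772 to 0.927 were measured for cel-piR-862, cel-piR-8238, cel-piR-7810 and cel-piR-7323, whose genotypes overlapped.

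Among members with 20 or more mutant reads, the mutant libraries were closest to each other for cel-piR-1575, with 0.895 and 1.11 RPM, against 2.79 and 1.43 RPM in wild type. They were nearly as close for cel-piR-7810, with 3.96 and 3.12 RPM, against 5.11 and 3.33 RPM in wild type. The third such piRNA, cel-piR-156, had 1.66 and 1.04 RPM in the mutant, against 0.929 and 2.85 RPM in wild type. The mutant libraries were farthest apart for cel-piR-4371, with 25 reads in replicate 1 and 1 read in replicate 2, a 46.1-fold difference in RPM. Differences of 22.1-fold and 21.2-fold were measured for cel-piR-9229, with 36 and 3 reads, and cel-piR-4758, with 23 and 2 reads. In 9 members mutant replicate 2 held fewer than 3 reads, so those ratios rest on replicate 1 almost alone.

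Over the 73 members the genotypes overlapped for 53, both mutant libraries were below both wild type libraries for 18, and both were above for 2. Over all 1542 piRNAs with enough wild type reads, 94.8% were lower in both mutant libraries and 0.13% were higher. The choice of members fixes most of this contrast. The larger of the mutant levels exceeded the smaller by a median of 5.13-fold over the members, and the larger wild type level exceeded the smaller by a median of 1.89-fold.

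Summed over the members, sense reads came to 623 and 742 RPM in mutant replicates 1 and 2, against 1186 and 765 RPM in wild type replicates 1 and 2. The mutant mean was 682 ± 84.2 RPM, against 976 ± 298 RPM in wild type (SD, n = 2 each), and the pooled mutant level was 73.8% of wild type. Without the 3 most abundant members it was 46.2%, with 88.1% in mutant replicate 1 and 23.4% in mutant replicate 2. Divided by piRNA reads instead of genome-mapped reads, the level of all 73 was 832% of wild type. The rest of the table was at 5.46% of wild type. The closeness of the mutant sums rested on cel-piR-8767. Without it the other 72 summed to 440 and 135 RPM in the mutant, 3.26-fold apart, against 394 and 350 RPM in wild type. The rest of the table was 4.39-fold apart between mutant replicates, with 1977 RPM in replicate 1 and 450 RPM in replicate 2.

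The choice of members fixes that their shares of the piRNA reads were higher in the mutant, since the rest of the table fell further, so these shares are a description. Of all piRNA reads, the less-reduced piRNAs made up 24.0% of mutant replicate 1 and 62.3% of mutant replicate 2, against 5.38% and 4.60% in wild type. Of these shares, cel-piR-8767 alone made 7.05% and 51.0% in the mutant, against 3.59% and 2.49% in wild type. Among piRNA reads other than those of cel-piR-8767, the remaining 72 made up 18.2% and 23.0% in the mutant, against 1.85% and 2.16% in wild type. On that scale the mutant libraries were close to each other, at 20.6% ± 3.43, against 2.00% ± 0.217 in wild type (SD, n = 2 each). Without the 3 most abundant members the shares were 9.24% and 10.2% in the mutant, against 1.46% and 1.29% in wild type. For 68 of the 72, both mutant shares exceeded both wild type shares, as they did for 19.3% of all 1541 piRNAs measured this way, and nothing is read from that difference. Leaving cel-piR-8767 out of the total was decided after the data were seen.

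**Figure D4:**
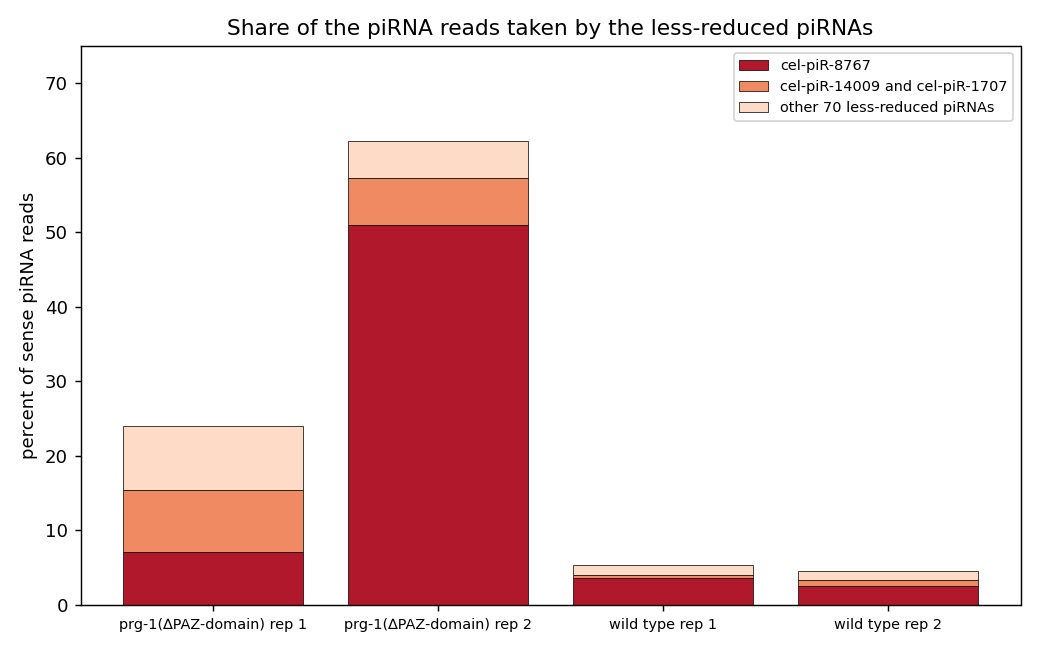
Bars give the percent of sense piRNA reads in each library that came from the 73 less-reduced piRNAs, split into cel-piR-8767, the next most abundant pair and the other 70. The bars reach 24.0% and 62.3% in the mutant libraries, against 5.38% and 4.60% in wild type, and cel-piR-8767 makes up most of the bar of mutant replicate 2.

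The ranks of the members in the mutant follow in the same way from how they were chosen. Of the 100 most abundant piRNAs in a library, 22 and 23 were members in mutant replicates 1 and 2, against 2 in each wild type library. Among the first 10, members numbered 4 and 6 in the mutant, against 1 in each wild type library, which was cel-piR-8767. The members in the first 10 of both mutant libraries were cel-piR-8767, cel-piR-14009 and cel-piR-1707. In mutant replicate 1 cel-piR-11803 joined them, and in replicate 2 cel-piR-1592, cel-piR-12706 and cel-piR-5164 did.

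A fit across the whole table is given as a description, since it uses the contrast that chose the members. Scaled to genome-mapped reads, 76.9% of 1355 tested piRNAs were lower in the mutant (edgeR quasi-likelihood test, adjusted p under 0.05) and 0% were higher. By DESeq2, 77% were lower and 0% higher. The low-count filter passed 69 of the 73 members and left out cel-piR-2769, cel-piR-11000, cel-piR-7871 and cel-piR-5485. Of the 69, 0 were lower and 0 higher, by edgeR, by DESeq2, or at an unadjusted p under 0.05 in either, and 61 had a log2 fold change below 0. The median log2 fold change by edgeR was -0.961 over the members and -4.03 over all tested piRNAs. Without mutant replicate 1, 48 of the 73 were lower, where 93.1% of all tested piRNAs were. Without mutant replicate 2, cel-piR-8767 and cel-piR-1592 were lower and cel-piR-1707 was higher, where 62.3% of all tested piRNAs were lower and 0.112% higher. Within the pool of piRNA reads, scaled by TMM, 56 of 67 members were higher, where 8.19% of all tested piRNAs were. The rule used these same reads, so the counts say nothing further about the members.

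Antisense reads played no part in choosing the piRNAs. At least 1 was found for 1 of the 73 members (1.37%) and for 30 of the 1469 other piRNAs with enough wild type reads (2.04%). Over the 73 there was 1 antisense read in mutant replicate 2 and 0 in the other libraries, against 29683 sense reads, a share of 0.00337% (exact 95% interval 8.53e-05% to 0.0188%). The read belonged to cel-piR-708. The 1469 others had an antisense share of 0.180% (exact 95% interval 0.164% to 0.197%). These shares rest on a few piRNAs: of the 477 antisense reads of the others, 301 belonged to cel-piR-5427 and 65 to cel-piR-14222, and cel-piR-8767 alone held most of the members' sense reads. The intervals hold counting error alone, and no difference between the sets is read from them. In a fit of antisense counts across the table, 7 piRNAs passed the low-count filter, of which 57.1% were lower in the mutant, and no member was among the 7. A piRNA with no read in a library may still have up to 3, equal to 0.208 to 0.464 RPM over the libraries.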

How the data were processed

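The authors deposited raw counts of sense and antisense reads for 15913 piRNAs of a piRNAdb set (version 1.7.6), and raw counts per 1 Mb bin and strand of ce11, per the file headers. A further sheet of the authors gave other totals per library, of which only the genome-mapped reads were used. How reads were trimmed, selected by length, aligned and, with several matches, assigned is not given in the sources used here, so piRNAs that share sequence are uncertain. The row of column totals was dropped.

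Levels are sense reads per 1000000 genome-mapped reads (RPM), and pooled levels divide summed reads by summed genome-mapped reads. Intervals of ratios are exact binomial (95%). edgeR 4.0.16 (quasi-likelihood, filterByExpr defaults with a minimum count of 10 and total of 15, R 4.3.3) and DESeq2 1.42.0 were run on the counts of all piRNAs, with p-values adjusted by Benjamini and Hochberg, after tests on simulated data. Ribosomal RNA genes came from Ensembl release 115. SciPy 1.17.1, NumPy 2.4.6, pandas 2.3.3 and matplotlib 3.10.9 were used.

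The members, the comparisons and the lists were chosen with earlier results of these data known. Named members were those with 100 or more wild type reads, the 10 highest ratios, the 3 nearest each side of the threshold, and the 3 whose mutant libraries, with 20 or more reads in all, differed most and least. Alternatives covered the denominator, thresholds, filter, scaling, tool, replicate block and each library left out.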

Additional observations from a re-analysis of the deposited data

How the results depend on the processing

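The number of less-reduced piRNAs followed the thresholds and the libraries. It was 146 and 27 with at least 10 and 50 wild type reads, 151 and 28 at ratios of 0.2 and 0.5, and 773 with sense piRNA reads as the denominator, against 73. Leaving out 1 library at a time gave 23 (without mutant replicate 1) to 269 (without mutant replicate 2), of which 20 and 72 were among the 73, and 41 and 23 without wild type replicates 1 and 2, of which 26 and 21 were. Chosen after the data were seen, division by reads from elsewhere than the ribosomal RNA bin gave 37 and a ratio of 0.3 in each mutant library gave 19. The pooled level of 73.8% was 59.0% to 91.5% with 1 library left out, 69.9% as a mean of libraries, 65.5% without cel-piR-8767, 46.2% without the 3 most abundant, 51.2% outside the ribosomal RNA bin and 832% per piRNA read. The cause of these moves beyond the construction of each alternative was not tested.

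Over all piRNAs, 1042 were lower by edgeR, 1043 by DESeq2, 891 without a filter, 186 within the pool scaled by TMM, and 0 to 1696 with 1 library left out. The low end of that range was reached without either wild type library, and the high end without mutant replicate 1. The median log2 fold change over all tested piRNAs was -4.03 by edgeR, -4.07 by DESeq2 and -3.19 without a filter. Within the pool scaled by TMM it was -0.324. In the fits with 1 library left out it lay between -5.85 and -3.22. With 1 library in a genotype, that genotype was assumed to vary like the other. Antisense calls numbered 4, 2 with TMM, and 0 to 4 with 1 library left out. With a replicate block, 782 sense and 1 antisense piRNAs were lower, and 0 members were called. The numbers were not shown to pair the samples (correlation of deviations 0.00076 over 1119 piRNAs). Retention of piRNAs chosen in mutant replicate 1 was 15.6%, 12.1% with at least 20 wild type reads and 5.15% with wild type libraries crossed. Retention of those chosen in mutant replicate 2 was 64.3%, 72.7% and 66.7%. Depth limits the 46 members with fewer than 50 wild type reads most.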

Other observations

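Below the wild type minimum, 73 of the 717 piRNAs with 10 to 19 wild type reads met the other criteria. A further 2 piRNAs met all criteria but a read in each mutant library. The piRNA cel-piR-12951 had 12 reads in mutant replicate 1 and 0 in mutant replicate 2, against 14 and 7 in wild type. The other, cel-piR-7371, had 10 reads in mutant replicate 1 and 0 in mutant replicate 2, against 17 and 5 in wild type. Among the members, cel-piR-10875 had wild type libraries 37.8-fold apart in RPM, with 29 reads in replicate 1 and 1 read in replicate 2, whereas its mutant libraries held 13 reads each.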
